A study of Mus musculus with 2 samples.

Results

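Open chromatin was described at 4 mouse genes that define the CD4 and CD8 lineages of T cells. They were Cd4, Cd8a and Cd8b1, which encode the co-receptors, and Zbtb7b, which encodes the transcription factor ThPOK. The genes were chosen by name and by their role in lineage choice, not by a measured value, and are 4 of 21853 protein-coding genes in the annotation. Their promoters and surroundings held 50 of 154812 DNase peaks in replicate 1 and 79 of 139702 in replicate 2. The samples were thymus from healthy newborn mice of strain B6NCrl at postnatal day 0, with males and females pooled. There was 1 group of 2 biological replicates, which the labels give the same donor and different biosamples, so no condition could be compared and no test was made. The labels of replicate 2 name a pair of sequencing instruments. The depth behind each list of peaks is unknown, as no read total is stated in the labels or the text beside the files.

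CD4 and CD8 are surface proteins that help the T cell receptor bind MHC class II and MHC class I molecules. Thymocytes first carry neither, then both, and finally keep one of them as they mature. ThPOK directs cells to the CD4 fate and represses CD8 lineage genes, while RUNX proteins repress Cd4 and Zbtb7b in cells of the CD8 lineage. In the mouse, Cd4 is known for an enhancer upstream of the gene and a silencer in its first intron, the Cd8 genes for a cluster of enhancers around and between them, and Zbtb7b for a distal and a proximal promoter with a silencer upstream. The positions of those elements were not matched to the peaks described here.

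A peak was 150 bp wide and carried a score from 1 to 150 that the authors deposited. Neither the labels nor the text beside the files say what the score counts, and it was used to rank peaks within a list. A promoter peak had its midpoint within 1000 bp of a coding transcription start site (TSS) of the gene. A distal peak lay farther from every coding TSS and was assigned to the nearest one within 100 kb. A shared peak was a peak of replicate 1 that overlapped a peak of replicate 2 by at least 1 bp. Distances are from the peak's midpoint to the nearest TSS of the gene along its direction of transcription, so that negative values are upstream.

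The sequences behind the strongest peaks are shown from mouse build GRCm38, plus strand. The shared peak with the highest rank outside the promoter is given for each gene. These are chr6:124885276-124885425 in an intron of Cd4, chr6:71369556-71369705 upstream of Cd8a, chr6:71341316-71341465 downstream of Cd8b1 and chr3:89388916-89389065 in an intron of Zbtb7b. The peak at chr6:124900516-124900665 between Cd4 and Lag3 was added after its score was seen. The promoter peak of Cd8b1 is shown for its dinucleotide repeat, over chr6:71322656-71322787, which leaves out the bases of exon 1. The highest-scoring distal peaks of replicate 2 that had no counterpart in replicate 1 are chr6:71381776-71381925 at Cd8a and chr6:71342856-71343005 at Cd8b1. Capitals mark matches on either strand to short motifs of factor families known in T cells, namely RUNX (TGTGGT), ETS (AGGAAG), a first E-box (CAGCTG), a second E-box (CACCTG), TCF/LEF (CTTTGA), factors of the GATA family (AGATAA), MYB (AACNGTT, or else AACTGNC) and CTCF (CNAGGNGGC).
Cd4 intron peak: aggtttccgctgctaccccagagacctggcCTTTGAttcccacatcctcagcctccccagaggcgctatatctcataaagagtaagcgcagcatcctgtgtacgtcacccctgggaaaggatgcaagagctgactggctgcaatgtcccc
Peak between Cd4 and Lag3: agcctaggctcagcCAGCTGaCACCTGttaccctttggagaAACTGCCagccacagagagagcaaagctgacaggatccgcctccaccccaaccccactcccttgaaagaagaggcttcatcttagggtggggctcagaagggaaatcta
Cd8a upstream peak: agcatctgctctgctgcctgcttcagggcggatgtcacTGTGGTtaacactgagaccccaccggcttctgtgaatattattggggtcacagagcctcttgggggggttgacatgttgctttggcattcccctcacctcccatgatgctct
Cd8b1 downstream peak: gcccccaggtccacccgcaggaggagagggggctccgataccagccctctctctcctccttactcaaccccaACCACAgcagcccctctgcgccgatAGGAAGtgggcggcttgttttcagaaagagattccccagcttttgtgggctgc
Cd8b1 promoter peak without exon: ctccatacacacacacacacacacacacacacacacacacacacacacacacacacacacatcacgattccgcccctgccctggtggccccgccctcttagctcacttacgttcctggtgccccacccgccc
Zbtb7b intron peak: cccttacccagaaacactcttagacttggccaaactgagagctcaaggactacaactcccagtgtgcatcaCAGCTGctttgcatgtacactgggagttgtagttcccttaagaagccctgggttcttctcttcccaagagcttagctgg
Cd8a peak of replicate 2 alone: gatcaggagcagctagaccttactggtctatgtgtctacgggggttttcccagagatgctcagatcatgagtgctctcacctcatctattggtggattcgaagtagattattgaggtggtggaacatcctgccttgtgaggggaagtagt
Cd8b1 peak of replicate 2 alone: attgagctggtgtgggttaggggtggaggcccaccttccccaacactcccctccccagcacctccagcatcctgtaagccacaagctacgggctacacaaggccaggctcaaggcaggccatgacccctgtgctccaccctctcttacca

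The promoters of all 4 genes carried a shared peak, as did those of 62.2% of all coding genes. The strongest promoter peak ranked higher at the co-receptor genes than at Zbtb7b. The peak at 24 bp from the Cd8a TSS scored 121 in replicate 1 and 119 in replicate 2, above 96.1% and 93.8% of the peaks of each list. At Cd4, a peak at -10 bp scored 83 and 84, above 80.8% and 82.7% of the lists. A second Cd4 peak, at -730 bp, scored 62 and 66, above 65.6% and 72.4%. The scores of the replicates thus lay within 4 units of each other at these 3 peaks. Replicate 1 listed another Cd8a promoter peak, at 338 bp with a score of 61, that had no counterpart in replicate 2.

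The Cd8b1 promoter was also covered differently in the 2 lists. Replicate 1 had 1 peak, at -57 bp with a score of 118. Replicate 2 had 3 peaks within 1000 bp, at 3 bp with a score of 133, at -217 bp with 113 and at -777 bp with 65. The last of them lay nearer to the TSS of Smyd1, a muscle methyltransferase gene transcribed in the opposite direction. In replicate 2 all 3 lay in a single hotspot, the wider enriched region of the deposited data, of 1197 bp. In replicate 1 the peak lay in a hotspot of 672 bp, which the peak of replicate 2 at -777 bp did not overlap. A run of 55 bases of alternating C and A at chr6:71322662-71322716, visible in the printed sequence, lay inside the peak of replicate 1. It filled most of the gap between the stronger peaks of replicate 2, which ended at 71322645 and began again at 71322716. Whether the repeat had a part in this split was not tested.

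The shared promoter peaks of Zbtb7b ranked above 34.0% to 58.2% of the list in replicate 1 and 46.7% to 64.0% in replicate 2. Replicate 1 listed another promoter peak, at -853 bp with a score of 28, above 18.7% of the list and without a counterpart in replicate 2. The annotation gives the gene 8 coding TSSs spread over its 5' part. The shared promoter peaks scored 54 in replicate 1 and 55 in replicate 2 at -53 bp, 42 and 47 at 258 bp, 45 and 39 at -242 bp, and 36 and 40 at -573 bp. The strongest of these 4 peaks exceeded 58.2% of the peaks of replicate 1 and 64.0% of those of replicate 2, whereas the strongest promoter peak of Cd4, Cd8a and Cd8b1 exceeded at least 80.8% in either list. The second promoter peak of Cd4 ranked between these. None of their hotspots reached the cap of 100 on the −log10 q-value, which the hotspots of the strongest promoter peak of the other 3 genes did. The TSSs at 89387189 and 89387671 had no peak within 1000 bp in either replicate. Their nearest peaks lay at 1518 bp and -1320 bp, and the other 6 TSSs had 2 or 3 promoter peaks each.

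**Figure D1:**
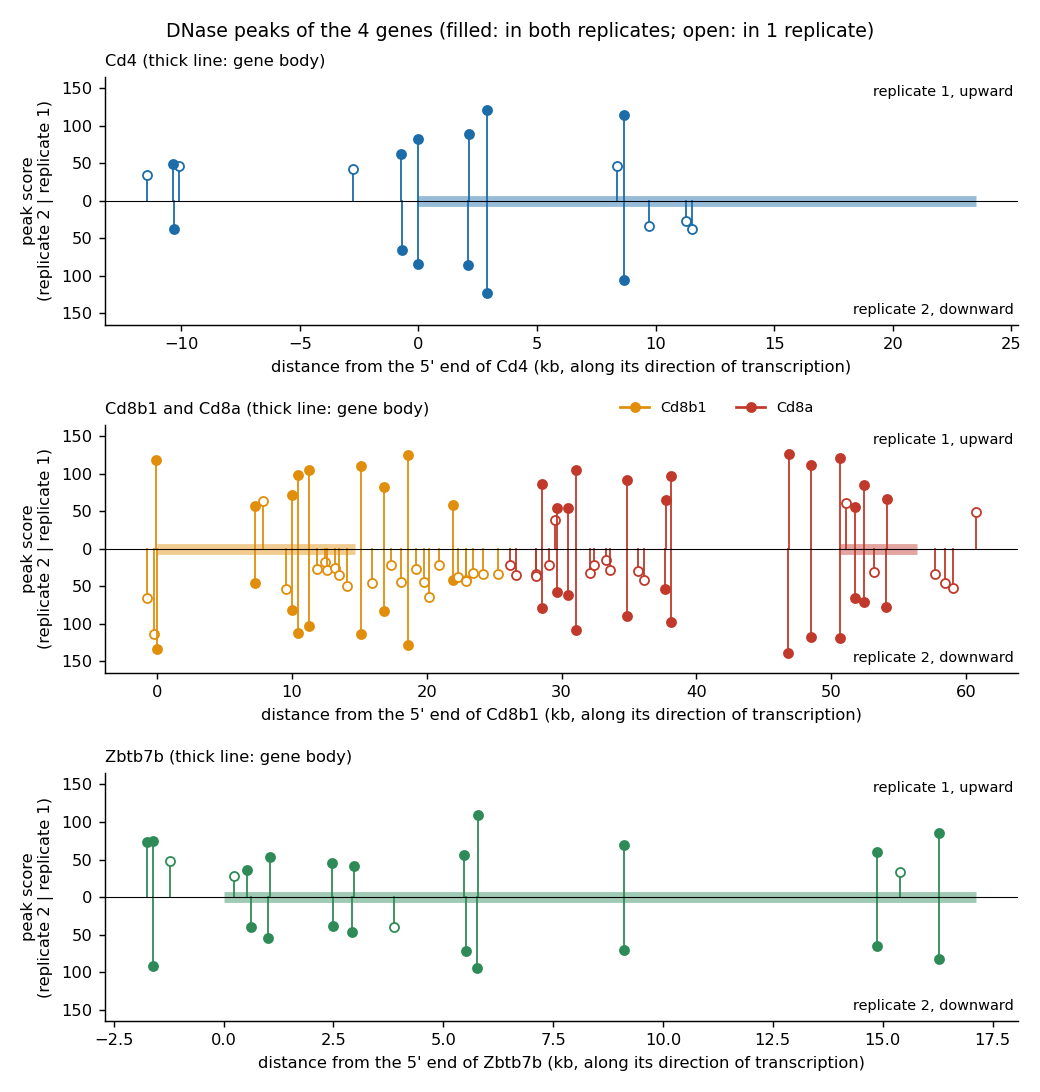
Score of each DNase peak of the 4 genes (vertical axis, no unit, replicate 1 upward and replicate 2 downward) against its distance from the 5' end of the gene in kb. Cd8b1 and Cd8a share a panel. Filled circles are peaks present in both replicates and open circles are peaks of 1 replicate. The shared peaks mirror each other, and the open circles crowd below the line at Cd8b1 and Cd8a, where replicate 2 listed 35 distal peaks that replicate 1 did not.

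Away from the promoters the 4 genes had 31 shared peaks. Cd8a had 12, Cd8b1 8, Zbtb7b 7 and Cd4 4, whereas 28.5% of all coding genes had at least 4. The sequence nearer to a gene's TSSs than to any other was short for each of them, 38.3 kb at Cd8a, 25.6 kb at Cd8b1, 23.9 kb at Cd4 and 22.0 kb at Zbtb7b. Per 100 kb of such sequence Zbtb7b had 31.8 distal shared peaks, Cd8a and Cd8b1 31.3 each, and Cd4 16.8, against a median of 2.79 over all coding genes. Zbtb7b was equalled or exceeded in this density by 1.16% of coding genes, Cd8a by 1.24%, Cd8b1 by 1.26% and Cd4 by 7.10%. The 7 peaks of Zbtb7b include a pair of replicate 1 that overlap each other. With such peaks merged its count was 6, and the densities were not recomputed, so its first place among the 4 genes is not secure. The counts and densities of the Cd8 genes rest on coding TSSs, since with TSSs of all biotypes the distal shared peaks were 5 at Cd8a and 1 at Cd8b1. The median distal shared peak of the 4 genes scored above 81.9% of the list in replicate 1 and 82.2% in replicate 2, against 60.1% and 56.5% for all 78719 distal shared peaks.

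Cd4 had its strongest peaks inside the gene. The gene spans chr6:124864692-124888221 on the minus strand. Its strongest distal peak, at 2870 bp in an intron, scored 121 in replicate 1 and 123 in replicate 2. The intronic peaks at 8670 bp and at 2110 bp scored 114 and 89 in replicate 1, and 106 and 86 in replicate 2. The only distal shared peak upstream, at -10350 bp, was weak, with 49 in replicate 1 and 38 in replicate 2. In replicate 1 another 4 distal peaks with scores from 34 to 47 had no counterpart, and in replicate 2 there were 3 such peaks with scores from 27 to 37.

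The count for Cd4 depended on how close its neighbours lie. Within 50 kb of the ends of Cd4 the lists had 43 peaks in replicate 1, 51 in replicate 2 and 30 shared, of which 18 were promoter peaks and 8 were distal peaks of other genes. A strong peak upstream of Cd4 lay at -12370 bp from its TSS, with a score of 129 in replicate 1 and 137 in replicate 2. It was the strongest shared peak between Cd4 and Lag3, above all peaks assigned to Cd4. The rule gave it to Lag3, which encodes an inhibitory receptor that binds MHC class II, because it lay 11114 bp from a Lag3 TSS. Its printed sequence holds the first and the second E-box 1 base apart, at bases 15 to 20 and 22 to 27, and a MYB match at bases 42 to 48.

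The Cd8 genes lie in tandem on the plus strand, Cd8b1 at chr6:71322788-71337494 and Cd8a at chr6:71373427-71379173. Of the 8 distal shared peaks of Cd8b1, 4 lay in its introns and 4 beyond its 3' end. Of the 12 of Cd8a, 9 lay upstream of the gene and 3 within it. The strongest was the Cd8a peak at -3796 bp, with a score of 127 in replicate 1 and 139 in replicate 2, and its neighbour at -2116 bp scored 112 and 118. A second group of Cd8a peaks lay near the middle of the interval between the genes, where the peak at -19556 bp scored 105 in replicate 1 and 108 in replicate 2 and the peak at -12516 bp scored 97 in both.

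At Cd8b1 the strongest distal peak lay beyond the 3' end of the gene, at 18603 bp, with 125 in replicate 1 and 128 in replicate 2. The peak at 15123 bp scored 111 and 114. Inside the gene, the peak at 11263 bp scored 105 in replicate 1 and 103 in replicate 2, and the peak at 10483 bp scored 99 and 112. The weakest shared peaks of this gene, at 7303 bp and 21923 bp, scored 57 and 59 in replicate 1 and 46 and 42 in replicate 2.

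At Zbtb7b, which spans chr3:89377644-89394776 on the minus strand, the distal shared peaks all scored above the shared promoter peaks of the gene. The strongest, in an intron at -1320 bp from the TSS at 89387671, scored 110 in replicate 1 and 94 in replicate 2. A neighbour at -1640 bp scored 56 and 72, and both lay in a single hotspot. Upstream of the gene, replicate 1 listed overlapping peaks at -2713 bp and -2853 bp with scores of 75 and 73, and both overlapped the peak of replicate 2 at -2713 bp, which scored 92. The 7 shared peaks of replicate 1 therefore correspond to 6 of the 7 distal peaks of replicate 2. The remaining shared peaks lay in exons, at 8698 bp with 85 in replicate 1 and 82 in replicate 2, at 7278 bp with 60 and 65, and at 1518 bp with 70 in both.

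**Figure D2:**
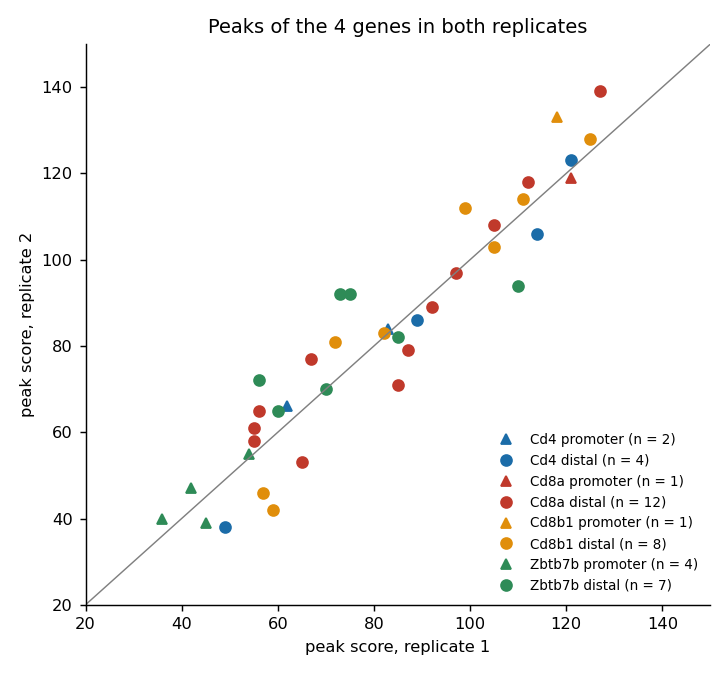
Peak score in replicate 2 (vertical axis, no unit) against peak score in replicate 1 (horizontal axis) for the 31 distal and 8 promoter shared peaks of the 4 genes. The line marks equal scores. The 4 promoter peaks of Zbtb7b lie between 36 and 55 on both axes, and the strongest peaks of Cd4, Cd8a and Cd8b1 lie above 118.

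The absolute difference in score between replicates had a median of 8 over the 31 distal shared peaks, with a range from 0 to 19, against a median of 9 over all distal shared peaks. By gene the median was 5.5 at Cd4, 7 at Cd8a, 6 at Cd8b1 and 16 at Zbtb7b. Midpoints were offset by a median of 20 bp, which was also the median over all distal shared peaks.

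The number of peaks at the Cd8 genes differed between the replicates. Distal peaks of Cd8b1 numbered 28 in replicate 2, against 9 in replicate 1, a ratio of 3.11. Cd8a had 27 in replicate 2 and 14 in replicate 1, a ratio of 1.93. Cd4 had 7 in replicate 2 and 8 in replicate 1, and Zbtb7b had 7 and 9. The whole list of replicate 2 was shorter, with 0.902 times as many peaks as that of replicate 1. Among 3583 coding genes with at least 10 distal peaks in either list, 33.8% had more in replicate 2, and the median log2 ratio with 1 added to each count was -0.12. The log2 ratio was 1.54 at Cd8b1, a value reached by 0.419% of these genes, and 0.90 at Cd8a, reached by 2.12%. Cd8b1 met the limit of 10 only in replicate 2, the list where it is high, so its share of 0.419% is no independent support. With 1 library on each side the ratios describe the 2 lists and have no error.

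**Figure D3:**
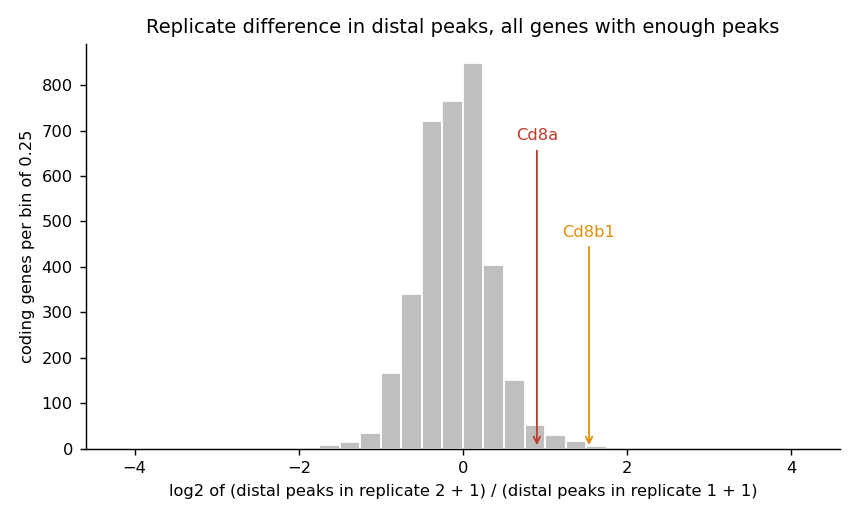
Number of coding genes (vertical axis) by log2 ratio of distal peaks, replicate 2 over replicate 1, with 1 added to each count (horizontal axis, bins of 0.25), for the 3583 genes with at least 10 distal peaks in either list. Arrows mark Cd8a at 0.90 and Cd8b1 at 1.54, to the right of most genes, whose median is -0.12.

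The additional peaks of replicate 2 were weaker than the shared ones. Cd8b1 had 20 distal peaks of replicate 2 alone, with scores from 17 to 64 and a median of 34.5, and Cd8a had 15, with scores from 15 to 52 and a median of 32. The 20 shared distal peaks of both genes had a median of 82 in replicate 2. Across the genome the median score in that list was 22 for distal peaks of replicate 2 alone and 47 for shared ones. None of the 35 additional peaks overlapped a hotspot of replicate 1, compared with 10.2% of the 28683 distal peaks of replicate 2 alone across the genome. Yet 18 of the 35 lay in a hotspot of replicate 2 at the cap of 100, compared with 9.34% across the genome. Some of the 18 lay in the same hotspot as each other or as a shared peak. An example is a hotspot of 2130 bp at Cd8b1 that also held shared peaks. They are therefore not 18 separate hotspots. Replicate 1 alone listed 3 distal peaks at these genes. The shared peaks themselves kept a similar score, with a median difference, replicate 2 minus replicate 1, of 3 and a range from -17 to 13. Their hotspots differed more. Of the 20 peaks, 17 lay in a hotspot at the cap in replicate 2 and 11 in replicate 1. Of all hotspots, 43.5% were at the cap in replicate 2 and 45.9% in replicate 1.

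The difference was local. In the 100 kb window centred on Cd8b1 and Cd8a, replicate 2 had 84 peaks and replicate 1 had 37. Of these, 51 were in replicate 2 alone and 4 in replicate 1 alone. The 10 flanking windows held 125 peaks in replicate 2 and 139 in replicate 1, with more in replicate 2 in 2 windows and more in replicate 1 in 6. Hotspots covered 35.3 kb of the central window in replicate 2 and 12.3 kb in replicate 1, while over the main chromosomes they covered 50.1 Mb and 46.9 Mb. Among 2290 windows of 100 kb with at least 20 peaks in either list, 0.655% had a ratio as high as this one.

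Single bins of 10 kb showed where the additional peaks lay. The bins from 20 kb to 10 kb and from 10 kb to 0 kb on the Cd8b1 side of the centre held 15 and 16 peaks in replicate 2, and 5 and 2 in replicate 1. The neighbours took part in it, as Rmnd5a, a ubiquitin ligase subunit gene, had 18 peaks in replicate 2 and 9 in replicate 1 within 50 kb of Cd8a. Smyd1 had 10 and 5 within 50 kb of Cd8b1. The surroundings of the other genes had single bins of this kind, with 16 peaks in replicate 2 and 11 in replicate 1 centred 15 kb from the centre of Cd4, and with 15 and 4 centred 65 kb from the centre of Zbtb7b. Over the central 100 kb windows, however, Cd4 had 46 peaks in replicate 2 and 39 in replicate 1, and Zbtb7b had 26 and 30.

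**Figure D4:**
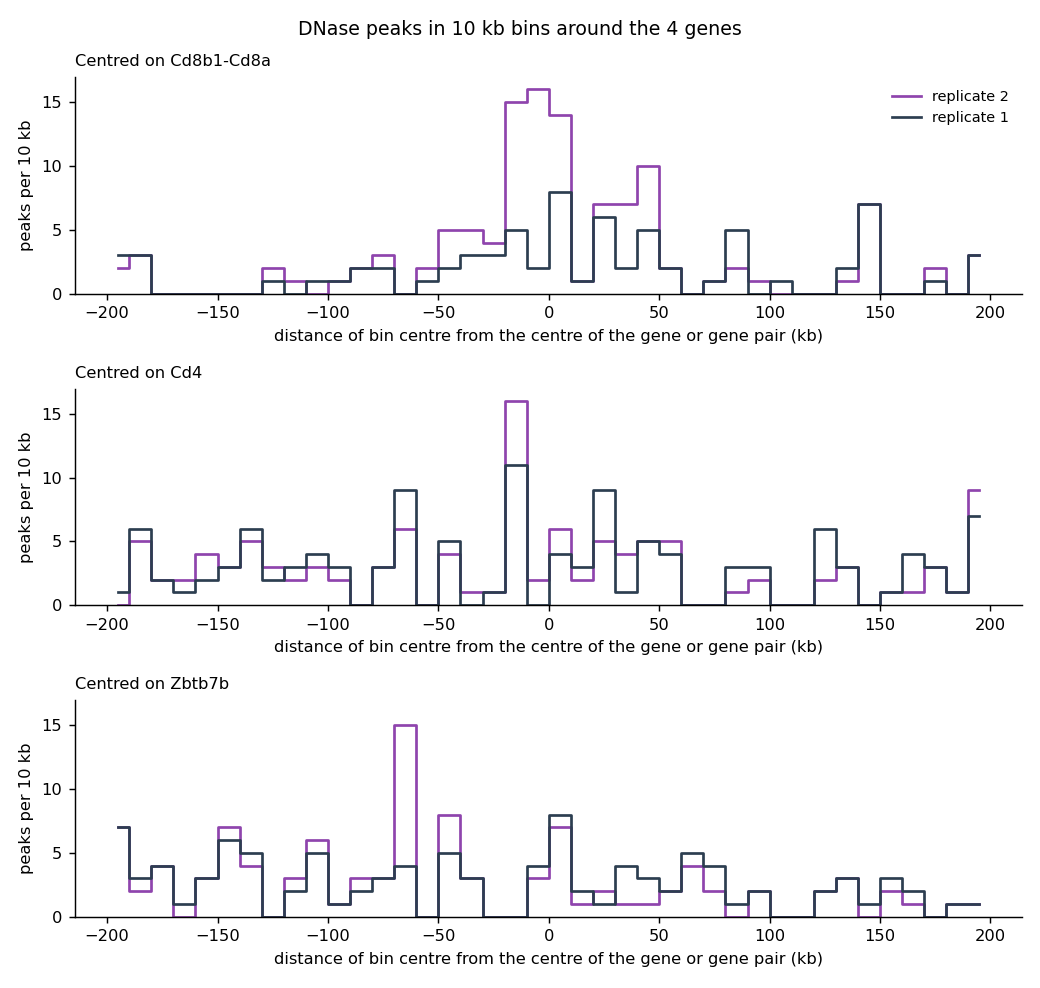
DNase peaks per 10 kb bin (vertical axis) against the distance of the bin from the centre of Cd8b1 and Cd8a, of Cd4 or of Zbtb7b in kb along the chromosome (horizontal axis), for replicate 2 and replicate 1. In the upper panel replicate 2 reaches 15 and 16 peaks in bins where replicate 1 has 5 and 2. Farther than 50 kb from the centre of the Cd8 genes the lines differ by at most 3 peaks, and a bin at -65 kb from Zbtb7b has 15 and 4.

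The replicate difference at the Cd8 genes depended on the weaker peaks and on the annotation. Among the stronger 50% of each list, Cd8b1 had 16 such peaks in replicate 2, against 9 in replicate 1, and Cd8a had 14 and 13. TSSs of all biotypes include those of 4 noncoding genes between the starts of Cd8b1 and Cd8a. With them Cd8b1 kept 1 in replicate 2 and 2 in replicate 1, and Cd8a 9 and 6. Which genes took the other peaks was not counted. Some deposited scores were written with a decimal point, for a reason that the deposited text does not state. They made up 10.1% of the list of replicate 2 and 6.78% of that of replicate 1, and 8 of the additional peaks at the Cd8 genes. Without them the count for Cd8b1 was 25 in replicate 2, against 9 in replicate 1, and for Cd8a 22 and 13.

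Genes with a similar replicate ratio were sought by the absolute difference of the log2 ratio from that of Cd8b1, over 810 coding genes with at least 20 distal peaks in replicate 2. The nearest were Zfp978 with 44 in replicate 2, against 14 in replicate 1, Ebf3 with 21 and 7, Gm21887 with 36 and 13, Limk2 with 20 and 7, and Crlf2 with 24 and 9. Distal shared peaks numbered 1 at Zfp978, 6 at Ebf3, 12 at Gm21887, 5 at Limk2 and 7 at Crlf2, against 8 at Cd8b1. Cd8a was in place 19. The filter reads replicate 2 alone, the list where Cd8b1 is high, and so favours genes with more peaks there. All genes named here had fewer than 20 in replicate 1, so the places only describe the lists.

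The share of the 31 distal shared peaks that held each motif is given beside that of all distal shared peaks. For ETS and TCF/LEF the shares lay close together. Read on the 150 bp of replicate 1, the E-box CACCTG was in 11 of the 31 peaks, or 35.5%, against 21.8% of all distal shared peaks. The other E-box, CAGCTG, was in 8 peaks, or 25.8%, against 16.0%. E-boxes are bound by the E proteins, which act in early T cell development. RUNX letters were in 8 peaks, or 25.8%, against 21.1%, and ETS letters in 9, or 29.0%, against 31.6%.

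TCF/LEF letters were in 4 of the 31 peaks, or 12.9%, against 13.5%. MYB letters were in 2, or 6.45%, against 11.0%, and GATA and CTCF letters in 1 peak each, or 3.23%, against 6.23% and 8.26%. In the 8 promoter peaks, RUNX, ETS, TCF/LEF and each E-box were found in 2 peaks each, and MYB, GATA and CTCF in none. On the peaks as listed in replicate 2 the second E-box and TCF/LEF were in 1 of 8 promoter peaks each, and among the stronger 50% in 0 of 5. Of all 25224 promoter shared peaks, 7.63% held RUNX, 20.4% ETS, 6.71% TCF/LEF, 10.1% the first E-box, 12.4% the second, 7.22% MYB, 2.68% GATA and 7.62% CTCF letters. In these shares 1 peak is 3.23% of the 31 distal peaks and 12.5% of the 8 promoter peaks. A match describes letters and not binding.

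Within the group, the Cd8a peak at -3796 bp held a RUNX match and the Cd8b1 peak at 18603 bp held a RUNX and an ETS match, as marked in the printed sequences. The Cd8b1 peak at 16823 bp held RUNX, both E-boxes and TCF/LEF. At Cd4, the intronic peak at 2110 bp and the weak upstream peak at -10350 bp held RUNX letters. The strongest distal peak of Zbtb7b held an inverted repeat of 17 bases, at 89388964 to 89388980 and again on the other strand at 89389003 to 89389019, on either side of its E-box. Each arm held the letters ACTACAANT, the first part of the consensus of the factor ZNF143, which were searched after the sequence was seen and were in 0.372% of all distal and 1.22% of all promoter shared peaks. The median GC content of the distal shared peaks was 62.7% at Zbtb7b, 54.7% at Cd4, 51.3% at Cd8b1 and 50.7% at Cd8a, against 50.7% for all distal shared peaks.

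Other genes of CD4 against CD8 choice were read from a list of 23, which included Runx1 and Runx3, Gata3, Tox, Lck and chromatin remodellers. The list was chosen with earlier results of these data known. All 23 had a promoter peak in both replicates, against 62.2% of all coding genes. Their distal shared peaks had a median of 14 per gene and a range from 2 to 45, against a median of 7.5 at the 4 genes and of 1 over all coding genes. Per 100 kb the median was 17.0 on the list and 31.3 at the 4 genes. The 5 thymocyte marker genes had a median of 27.4 per 100 kb, with 48.2 at Cd3e and 38.9 at Rag1, so such densities were not found at the 4 genes alone. Runx1 had 45 distal shared peaks and Runx3, which directs the CD8 fate, had 32. Gata3, which acts upstream of Zbtb7b, had 15, and Cbfb, the partner of the RUNX proteins, had 2.

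Of the 23 genes, 9 had more distal peaks in replicate 2 and 11 fewer. Of all 21853 coding genes, 4438 had more in replicate 2 and 7855 fewer, a count that includes genes with few or no distal peaks. Among coding genes with at least 10 distal peaks in either list, 33.8% had more in replicate 2. Bcl11b, a T cell commitment factor, had 70 in replicate 2 and 44 in replicate 1. At Il7r, the interleukin 7 receptor gene, the strongest promoter peak exceeded 70.5% of the list in replicate 1 and 70.3% in replicate 2. At the other 22 genes it exceeded at least 88.6% in either list, which is also above the strongest promoter peaks of Cd4 and Zbtb7b.

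Markers of other cells that a thymus holds were read in the same way. Promoter peaks in both replicates were present at 5 of 5 thymocyte genes (Cd3e, Cd3g, Lck, Rag1 and Ptcra), 1 of 4 B cell genes, 2 of 5 myeloid genes and 0 of 4 thymic epithelial genes. Of all coding genes, 62.2% had such peaks. The B cell gene was Pax5, whose strongest promoter peak exceeded 95.0% of the list in replicate 1 and 92.3% in replicate 2. The myeloid genes were Lyz2, at 22.7% and 10.7%, and Flt3, at 43.7% and 59.5%. Distal shared peaks were present at 5 of 5 thymocyte, 2 of 4 B cell, 5 of 5 myeloid and 3 of 4 thymic epithelial genes, against 14198 of all 21853 coding genes. Their median number was 4 at the thymocyte, 1 at the B cell, 2 at the myeloid and 1.5 at the thymic epithelial genes, with 6 at the keratin gene Krt8, against 1 over all coding genes. Some dendritic cells and macrophages also use Cd4 or Cd8a, and which cells gave the peaks of the 4 genes was not tested. In whole tissue, a change in the number of cells of a type and a change within those cells cannot be told apart.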

How the data were processed

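DNase-seq was measured in 2 replicates of newborn mouse thymus. Per library, the authors deposited peaks of 150 bp with a score per peak, and hotspots with a −log10 of a q-value per hotspot, on mm10 (GRCm38), per the labels and the text beside the files. Both were called for each library alone and not on pooled replicates. Each of the peak caller, its threshold, the aligner and the number of reads is not given in the sources used here. No value was scaled by depth. The deposited score runs from 1 to 150. The −log10 q-values start at 1.30 and reached their cap of 100 in 45.9% (replicate 1) and 43.5% (replicate 2) of hotspots.

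Peaks were annotated with GENCODE M21 (21853 coding genes, 54361 coding TSSs), after 0 peaks were found beyond the ends of the 21 main chromosomes of GRCm38. Sequences were read from the GRCm38.p6 assembly of RefSeq, and motifs were searched on both strands. A gene's distal peaks depend on where its neighbours' TSSs lie, so all peaks within 50 kb were counted as well. The text names the 4 genes, their neighbours within 50 kb, the listed genes of lineage choice, cell markers, and the 5 genes nearest to Cd8b1 in replicate ratio. The genes and lists were chosen with earlier results of these data known. The alternatives tried were to use hotspots, TSSs of all biotypes, 1 replicate alone, lists of equal length, the stronger 50% of each list, or an overlap of 50% in both directions, and to set the promoter window to 2500 bp, the assignment limit to 50 kb or the fixed window to 20 kb. Steps were tested on simulated data. Python 3.11.15, numpy 2.4.6, pandas 2.3.3 and matplotlib 3.10.9 were used.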

Additional observations from a re-analysis of the deposited data

How the results depend on the processing

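With TSSs of all biotypes, which add those of 4 noncoding genes between the starts of Cd8b1 and Cd8a, the distal shared peaks were 5 at Cd8a and 1 at Cd8b1. The difference between replicates (2 minus 1) then turned to 1 at Cd4 and to -1 at Cd8b1, and became 3 at Cd8a and -1 at Zbtb7b. Among the stronger 50% of peaks the difference was -2 at Cd4, 1 at Cd8a and 7 at Cd8b1, and Zbtb7b kept 1 promoter shared peak. A promoter window of 2500 bp gave 4 promoter shared peaks at Cd8a, and 7 promoter and 4 distal shared peaks at Zbtb7b. Counting hotspots gave a difference of 9 at Cd8b1 and 0 at Zbtb7b. With each replicate alone, distal peaks ran from 7 to 8 at Cd4, 14 to 27 at Cd8a, 9 to 28 at Cd8b1 and 7 to 9 at Zbtb7b, and promoter peaks were 2 in both at Cd4, 1 to 2 at Cd8a, 1 to 3 at Cd8b1 and 4 to 5 at Zbtb7b. Windows of 20 kb held 18, 15, 17 and 12 shared peaks at Cd4, Cd8a, Cd8b1 and Zbtb7b, against 30, 30, 28 and 23 in windows of 50 kb. On the peaks as listed in replicate 2, MYB letters were in 3.33% and CTCF letters in 0% of the distal shared peaks, and the second E-box and TCF/LEF letters in 12.5% of the promoter shared peaks. Among the stronger 50%, the last 2 were in 0% and ETS and the first E-box in 40% of the promoter shared peaks. Merging overlapping peaks of a list, which gave a difference of -1 at Zbtb7b, and leaving out peaks written with a decimal point were chosen after seeing the data. The other values, 110 of 144, stayed within 1.5 times the reported one. No paired analysis was possible because there is 1 group and no test. Depth and calling thresholds are unknown, so a peak absent from 1 list is a peak not listed and is not shown to be closed chromatin.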
